A study of Bos taurus with 8 samples.

Results

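The genes described here are 31 members of the amino acid stress response: the transcription factor ATF4, factors that work with it, its feedback regulators, and enzymes and secreted proteins that it is known to induce. They were chosen by symbol, and all 31 were found among the 28709 genes of the deposited table. The study measured poly(A) RNA in BUTE cells, a single immortalized uterine epithelial line from a Holstein dairy cow, labelled wild type. All cells first spent 24 h in medium free of serum and steroids to which insulin-like growth factor 1 (IGF1) had been added, a condition the submitters used to make the cells build glycogen. They then received either the vehicle DMSO (4 libraries) or 10 µM progesterone (4 libraries) for 24 h, with IGF1 at 50 ng/ml in both groups. Since nothing in the labels ties the 4 libraries to separate cultures, the p-values measure only the spread between these libraries.

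ATF4 is made when a kinase such as GCN2 or PERK phosphorylates the initiation factor eIF2, which lowers general translation but favours the ATF4 message. Growth factor signalling through mTORC1 also raises its translation. Since much of this control lies in translation, the ATF4 message is only part of its activity, and the messages of its targets are commonly read beside it. ATF4 pairs with C/EBP proteins on composite DNA elements and induces amino acid synthesis and uptake, tRNA charging and mitochondrial folate metabolism. It also induces regulators such as DDIT3 (CHOP), TRIB3 and PPP1R15A (GADD34), which can turn the response toward cell death or switch it off.

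Libraries held 23810861 to 32509786 estimated counts, and the totals of the groups overlapped. DMSO R7 and DMSO R9 stood apart from the other 6 libraries: their log2 CPM (counts scaled to a common library total, with TMM factors) correlated across genes at 0.992 with each other, at 0.949 to 0.962 with the other 6, and the other 6 correlated at 0.983 to 0.992 among themselves. Progesterone was therefore compared with all 4 DMSO libraries and again with DMSO R1 and R3 alone. Both comparisons use the same 4 progesterone libraries and share 2 DMSO libraries. The epithelial keratin KRT8 was at 1348 to 2789 CPM, and E-cadherin (CDH1) at 10.5 to 22.7 CPM. EPCAM was at 0.275 to 2.53 CPM, and CLDN4, CLDN7 and GRHL2 were under 1 CPM in every library. All 9 stromal fibroblast markers on the list were also above 1 CPM in every library, with a summed level of 12083 to 20569 CPM. Of 6 smooth muscle markers only MYH11 was under 1 CPM in every library, and their summed level was 896 to 1136 CPM. Of 6 leukocyte markers PTPRC had no count in any library, and CD3E and CSF1R were under 1 CPM throughout. CD14, CD68 and LCP1 reached 1 CPM in at least 1 library, and the summed level of the 6 was 7.79 to 13.9 CPM. Of the endothelial markers 4 of 5 were under 1 CPM throughout.

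With all 8 libraries, 30 of the 31 genes passed the filter on low counts and were tested. NUPR1 rose, ALDH18A1 fell, and 28 did not pass the threshold of 0.05 (edgeR's quasi-likelihood F test, p adjusted over 13557 genes by Benjamini-Hochberg). Over all genes tested 2.65% passed, 1.69% higher and 0.959% lower, beside 2 of 30 members, 1 in each direction. DESeq2 called 6 members, NUPR1, CEBPB and VLDLR higher and ALDH18A1, MTHFD1L and CTH lower, when 1830 of 13557 genes passed in all. Limma voom called NUPR1 and ALDH18A1, when 277 genes passed in all. At an unadjusted p under 0.05 there were 7 members, 3 higher and 4 lower, or 23.3% of the 30 beside 26.8% of all genes, so the members' share lay close to the background. The median log2 fold change of the members was -0.06, and of all genes -0.01. The values are levels relative to the counted poly(A) RNA of each library, so that fewer cells of a type and less RNA per cell cannot be told apart.

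Against DMSO R1 and R3 alone, 31 of 31 genes were tested and 0 passed in edgeR, where 1.18% of 13764 genes passed, 0.995% higher and 0.182% lower. In this comparison DESeq2 called 4 members, NUPR1, TRIB3 and ALDH1L2 higher and ALDH18A1 lower, when 568 of 13764 genes passed in all. Limma voom called 0 members, when 136 genes passed in all. At an unadjusted p under 0.05 edgeR listed 11 members, 9 higher with progesterone and 2 lower. This was 35.5% of the members, beside 15.9% of all genes, in the higher direction 29.0% beside 9.77% and in the lower direction 6.45% beside 6.1%. The median log2 fold change was 0.14 for the members and 0.01 for all genes. The sign of the members' median thus differed between the comparisons, which differ only in DMSO R7 and R9.

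**Figure D1:**
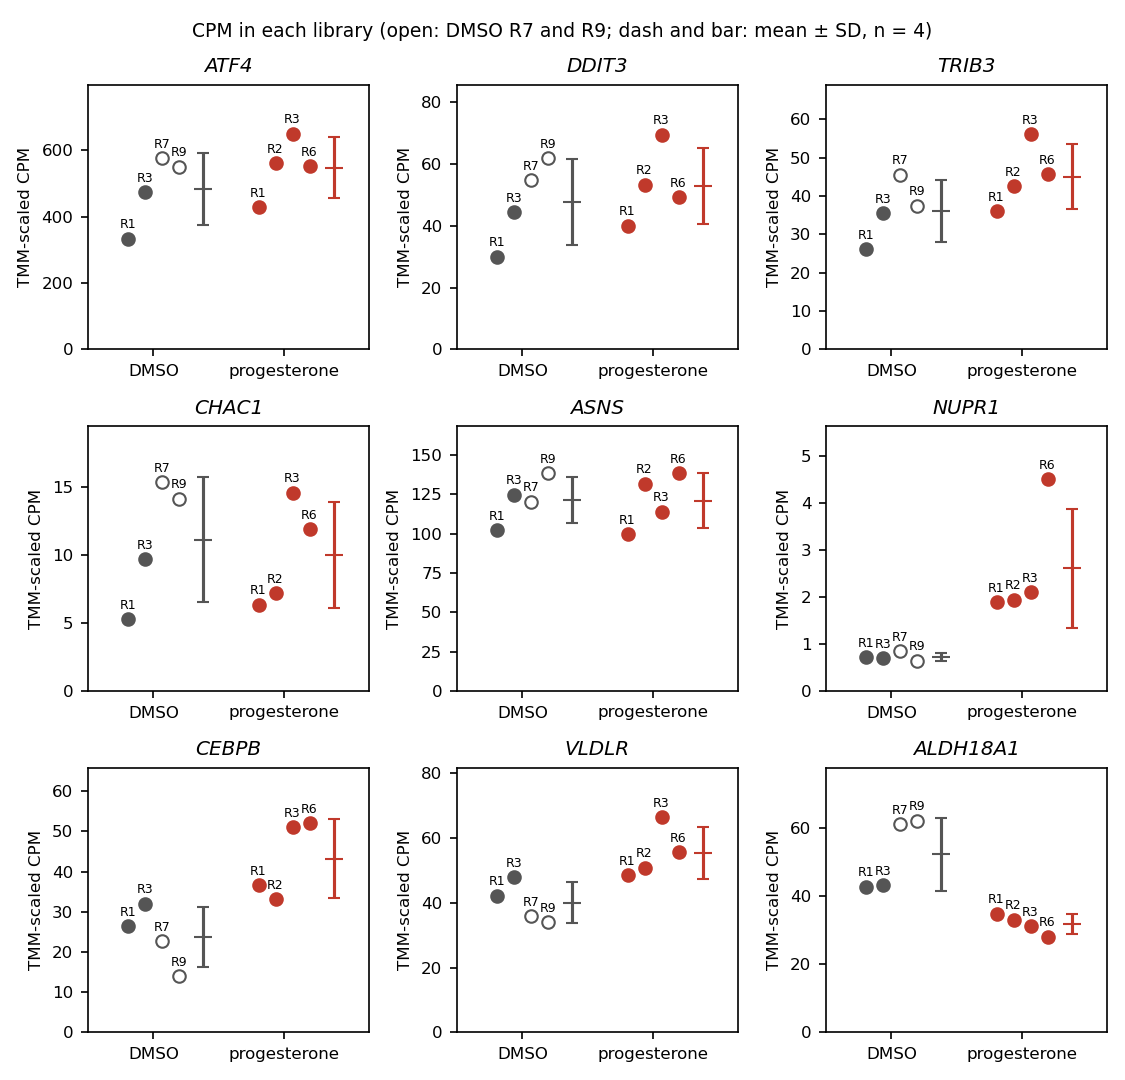
TMM-scaled CPM of 9 genes in each library, DMSO in grey and progesterone in red, with open circles for DMSO R7 and R9 and the mean ± SD of 4 libraries beside each group. NUPR1, CEBPB, VLDLR and ALDH18A1 do not overlap between the groups, while the other 5 genes do.

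The ATF4 message (Entrez Gene 509107, chromosome 5) was at 334, 474, 577 and 551 CPM in DMSO R1, R3, R7 and R9, and at 428, 561, 649 and 552 CPM in progesterone R1, R2, R3 and R6. There was overlap between the groups, with DMSO R1 lowest and progesterone R3 highest of the 8. Against all DMSO libraries the log2 fold change was 0.18 ± 0.18 (SE, 95% interval -0.22 to 0.57, edgeR adjusted p = 0.539). Against R1 and R3 it was 0.45 ± 0.18 (0.06 to 0.85), with an unadjusted edgeR p of 0.0292 and an adjusted p of 0.251. The level of ATF4 thus did not pass in either comparison.

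DDIT3 (777788, chromosome 5), which encodes the pro-apoptotic factor CHOP, was at 29.9, 44.3, 54.7 and 61.8 CPM in DMSO R1, R3, R7 and R9, and at 39.9, 53.3, 69.4 and 49.1 CPM in progesterone R1, R2, R3 and R6. DMSO R9 was second highest of the 8 libraries, and the groups overlapped. The log2 fold change was 0.15 ± 0.23 with all libraries (edgeR adjusted p = 0.696) and 0.52 ± 0.22 against R1 and R3 (0.295).

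NUPR1 (614673, chromosome 25) encodes a small stress-induced chromatin protein. It was at 0.717, 0.698, 0.848 and 0.643 CPM in DMSO R1, R3, R7 and R9, and at 1.90, 1.94, 2.11 and 4.51 CPM in progesterone R1, R2, R3 and R6. These are 17 to 25 counts with DMSO and 49 to 109 with progesterone, so NUPR1 was a rare message in all libraries. Every progesterone library was above every DMSO library, R7 and R9 included, and progesterone R6 was far above the other 3. With all libraries NUPR1 rose 3.57-fold (log2 fold change 1.83 ± 0.34 SE, 95% interval 1.08 to 2.59, edgeR adjusted p = 0.0303). Against R1 and R3 the log2 fold change was 1.88 ± 0.44 with an edgeR adjusted p of 0.0703, so the call was lost without a smaller change. Without progesterone R6 the log2 fold change was 1.44 (edgeR adjusted p = 0.0630).

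CEBPB (338319, chromosome 13), a C/EBP partner and target of ATF4, did not pass in edgeR with all libraries or against R1 and R3, and passed in DESeq2 with all libraries (adjusted p = 0.0077). It was at 26.4, 32.0, 22.7 and 14.0 CPM in the DMSO libraries in the same order, and at 36.6, 33.1, 51.1 and 52.0 CPM in the progesterone libraries. The groups did not overlap, but DMSO R3 and progesterone R2 lay close together and R9 was lowest. The log2 fold change was 0.86 ± 0.24 with all libraries (edgeR adjusted p = 0.0770) and 0.58 ± 0.19 against R1 and R3 (0.185). Neither of the remaining factors passed. ATF5, a stress factor translated in the same way as ATF4, was at 0.03 ± 0.12 on the log2 fold change scale with all libraries and 0.17 ± 0.11 against R1 and R3. CEBPG, a partner of ATF4 in amino acid gene induction, was at -0.13 ± 0.11 and -0.03 ± 0.12.

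**Figure D2:**
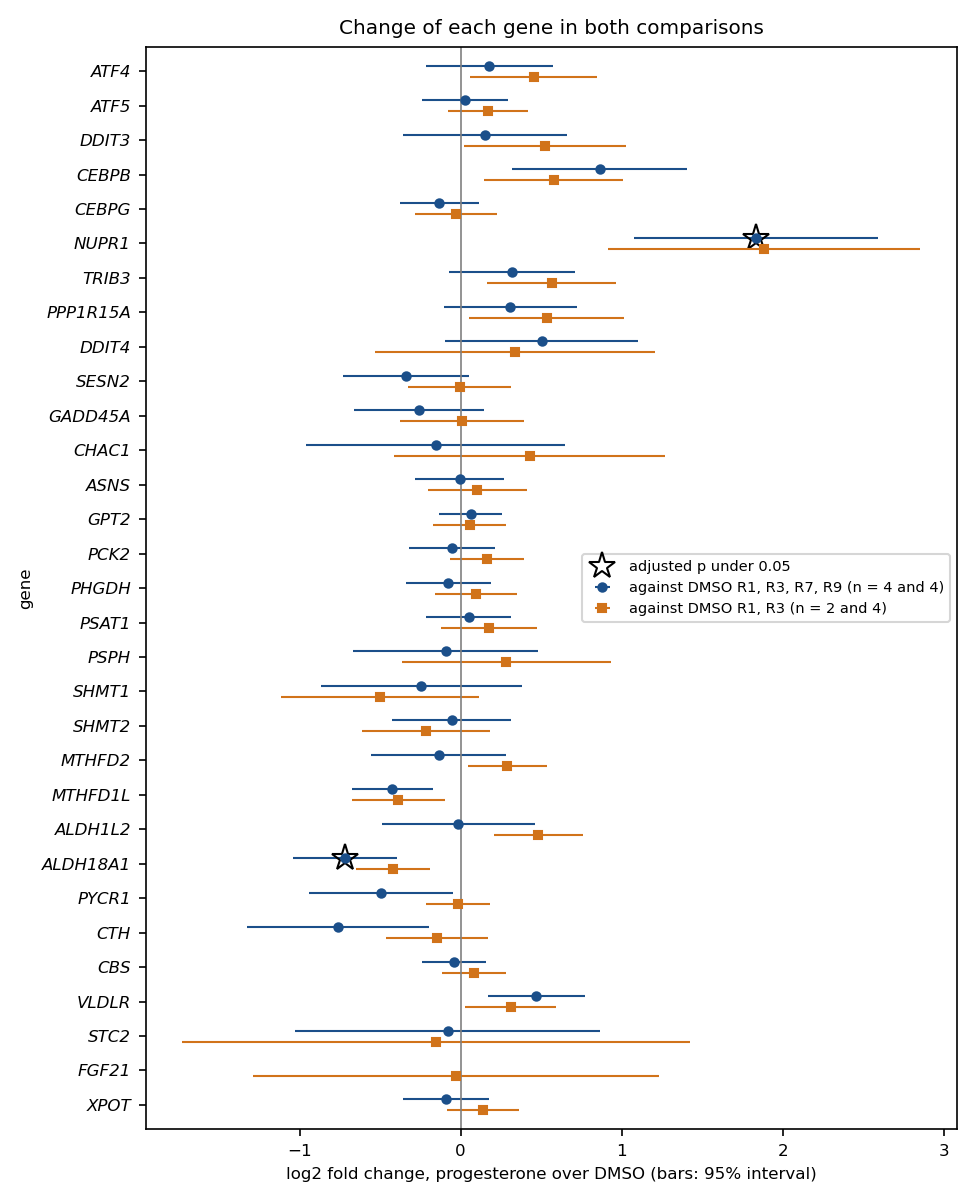
Log2 fold change of each gene, progesterone over DMSO, with its 95% interval, against all 4 DMSO libraries (blue circles) and against DMSO R1 and R3 (orange squares). Stars mark NUPR1 and ALDH18A1, the 2 genes with an edgeR adjusted p under 0.05, both only with all 8 libraries. FGF21 has no blue point because it was below the filter there.

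Among the feedback and stress regulators, 0 of 6 passed in edgeR in either comparison. At an unadjusted p under 0.05 edgeR listed 0 of 6 with all libraries, beside 26.8% of all genes. Against R1 and R3 it listed 2 of 6, beside 15.9%. DESeq2 called TRIB3 against R1 and R3 (adjusted p = 0.0424). TRIB3 (538465, chromosome 13), a pseudokinase that binds ATF4 and AKT, was at 26.1, 35.4, 45.6 and 37.4 CPM in DMSO R1, R3, R7 and R9. In progesterone R1, R2, R3 and R6 it was at 36.0, 42.5, 56.0 and 45.7 CPM. Every progesterone library was above DMSO R1 and R3, while DMSO R7 and R9 lay among the progesterone libraries. For TRIB3 the log2 fold change was 0.32 ± 0.18 with all libraries (edgeR adjusted p = 0.268) and 0.56 ± 0.18 against R1 and R3 (0.165).

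PPP1R15A, the phosphatase subunit that removes the phosphate from eIF2, showed the same arrangement. It was at 42.8, 60.4, 68.5 and 67.5 CPM with DMSO and at 65.7, 66.7, 101 and 63.0 CPM with progesterone, with every progesterone library above R1 and R3, and R7 and R9 inside the progesterone range. In log2 fold change it was at 0.31 ± 0.19 with all libraries and 0.53 ± 0.21 against R1 and R3, with edgeR adjusted p of 0.303 and 0.265. DDIT4 (REDD1) restrains mTORC1 and is also known as a glucocorticoid-responsive gene. It ranged from 81.5 to 134 CPM with DMSO and from 99.5 to 212 CPM with progesterone. DMSO R3 was the highest DMSO library and progesterone R3 the highest of all 8. DDIT4 had log2 fold changes of 0.50 ± 0.26 with all libraries and 0.34 ± 0.36 against R1 and R3.

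CHAC1 (505991, chromosome 10) degrades glutathione and is among the most responsive ATF4 targets in other cells. It was at 5.29, 9.73, 15.4 and 14.2 CPM in DMSO R1, R3, R7 and R9, and at 6.36, 7.21, 14.6 and 11.9 CPM in progesterone R1, R2, R3 and R6. Both groups ran from a low to a high level and overlapped fully. The log2 fold change was -0.15 ± 0.36 with all libraries (95% interval -0.96 to 0.65) and 0.43 ± 0.37 against R1 and R3 (-0.41 to 1.27). SESN2, a leucine sensor upstream of mTORC1, was at -0.34 ± 0.18 (log2 fold change) with all libraries and -0.01 ± 0.14 against R1 and R3. GADD45A, a growth arrest gene, was at -0.26 ± 0.18 and 0.01 ± 0.17, and its sign against R1 and R3 was negative under 4 other settings.

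Of the amino acid enzymes, ASNS (514209, chromosome 4), which makes asparagine and is the standard ATF4 target, did not pass in either comparison. It was at 102, 125, 120.2 and 138 CPM in DMSO R1, R3, R7 and R9, and at 99.5, 132, 114 and 138 CPM in progesterone R1, R2, R3 and R6. Both groups covered the same range, and the log2 fold change was -0.01 ± 0.12 (95% interval -0.28 to 0.27) with all libraries, with a positive sign when scaled by library size only or without a filter. It was 0.10 ± 0.14 (-0.20 to 0.41) against R1 and R3. GPT2, the mitochondrial alanine aminotransferase, lay between 42.4 and 52.4 CPM in all 8 libraries, with a log2 fold change of 0.06 in both comparisons (0.06 ± 0.09 and 0.06 ± 0.10). PCK2, mitochondrial phosphoenolpyruvate carboxykinase, was at -0.05 ± 0.12 and 0.16 ± 0.10.

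The serine synthesis pathway of PHGDH, PSAT1 and PSPH turns a glycolytic intermediate into serine, and 0 of its 3 genes passed in edgeR or had an unadjusted p under 0.05 in either comparison. Over all genes 26.8% had an unadjusted edgeR p under 0.05 with all libraries and 15.9% against R1 and R3. DESeq2 and voom called 0 of the 3. The log2 fold change with all libraries was -0.08 ± 0.12 for PHGDH, 0.05 ± 0.12 for PSAT1 and -0.09 ± 0.26 for PSPH. Against R1 and R3 the values were 0.09 ± 0.11, 0.17 ± 0.13 and 0.28 ± 0.28. PSPH varied most of the 3, from 23.1 to 44.9 CPM with DMSO and from 22.9 to 48.1 CPM with progesterone.

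Serine feeds the folate cycle through SHMT1 in the cytosol and SHMT2 in mitochondria, and MTHFD2, MTHFD1L and ALDH1L2 carry the mitochondrial steps. None of these 5 passed in edgeR in either comparison. With all libraries 1 had an unadjusted edgeR p under 0.05, beside 26.8% of all genes, and against R1 and R3 3 had, beside 15.9%. DESeq2 called MTHFD1L with all libraries (adjusted p = 0.0129) and ALDH1L2 against R1 and R3 (0.0242). MTHFD1L, which releases formate, was at 112, 134, 124 and 131 CPM with DMSO and at 88.5, 83.4, 115 and 86.2 CPM with progesterone. Progesterone R3 lay just above DMSO R1, and the other 3 progesterone libraries were below all DMSO libraries. The log2 fold change was -0.43 ± 0.11 with all libraries (edgeR adjusted p = 0.0699) and -0.39 ± 0.13 against R1 and R3 (0.188). Without progesterone R3, MTHFD1L passed in both comparisons, at log2 fold changes of -0.54 and -0.52 (edgeR adjusted p = 0.0438 and 0.0366).

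ALDH1L2 and MTHFD2 were arranged otherwise. ALDH1L2, which oxidises mitochondrial formyl-folate and makes NADPH, was at 25.0 and 29.2 CPM in DMSO R1 and R3, at 47.7 and 49.7 CPM in R7 and R9, and between 33.1 and 42.9 CPM with progesterone. The progesterone libraries thus fell between these DMSO pairs without touching either. Its log2 fold change was -0.01 ± 0.21 with all libraries and 0.48 ± 0.13 against R1 and R3 (edgeR adjusted p = 0.971 and 0.0949), and the sign of the first was positive under 4 other settings. MTHFD2, the bifunctional dehydrogenase and cyclohydrolase of mitochondrial folate, was at 29.5, 33.6, 48.4 and 56.6 CPM with DMSO and between 34.1 and 42.0 CPM with progesterone. The change in log2 was -0.14 ± 0.19 and 0.29 ± 0.11. SHMT2 was at -0.06 ± 0.17 and -0.22 ± 0.18, and SHMT1, at 1.99 to 5.46 CPM, was at -0.24 ± 0.28 and -0.50 ± 0.28.

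Proline is made from glutamate by ALDH18A1 and PYCR1 in turn. ALDH18A1 (514759, chromosome 26), the synthase of the first step, was at 42.7, 43.1, 61.0 and 62.0 CPM in DMSO R1, R3, R7 and R9, and at 34.8, 33.0, 31.1 and 28.0 CPM in progesterone R1, R2, R3 and R6. All progesterone libraries were below all DMSO libraries, and R7 and R9 were highest. With all libraries ALDH18A1 fell by 0.72 ± 0.14 on the log2 scale (1.64-fold lower, edgeR adjusted p = 0.0359). Against R1 and R3 the log2 fold change was -0.42 ± 0.10 (95% interval -0.65 to -0.19, edgeR adjusted p = 0.0832), a change smaller in size that did not pass.

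PYCR1 (539606, chromosome 19), the reductase of the last step, did not pass in edgeR with all libraries or against R1 and R3. It was at 84.7 and 91.5 CPM in DMSO R1 and R3, at 145 and 165 CPM in R7 and R9, and between 78.4 and 90.7 CPM with progesterone. Its log2 fold change was -0.50 ± 0.20 with all libraries (edgeR adjusted p = 0.154) and -0.02 ± 0.09 (95% interval -0.22 to 0.18) against R1 and R3. CTH, which makes cysteine from cystathionine, had a like arrangement, at 11.2 and 14.2 CPM in R1 and R3, 25.4 and 26.6 CPM in R7 and R9, and 10.9 to 12.4 CPM with progesterone. In log2 fold change CTH was at -0.76 ± 0.25 and -0.15 ± 0.14 (edgeR adjusted p = 0.105 and 0.670). CBS, the enzyme that makes cystathionine, was at -0.04 ± 0.09 and 0.09 ± 0.09.

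VLDLR (282123, chromosome 8) encodes a lipoprotein receptor that ATF4 is known to induce under stress. It was at 42.1, 47.8, 35.9 and 34.0 CPM with DMSO and at 48.5, 50.7, 66.4 and 55.5 CPM with progesterone. The groups did not overlap, although DMSO R3 and progesterone R1 were nearly equal. Its log2 fold change was 0.47 ± 0.14 with all libraries (edgeR adjusted p = 0.0788) and 0.31 ± 0.13 against R1 and R3 (0.271). STC2, a secreted glycoprotein, was high in DMSO R3 (52.7 CPM) and progesterone R3 (66.9 CPM), and at 21.4 to 36.1 CPM in the other 6. STC2 had log2 fold changes of -0.08 ± 0.41 and -0.15 ± 0.62. XPOT, which exports tRNA from the nucleus, was at -0.09 ± 0.12 and 0.14 ± 0.10. FGF21, a stress-induced hormone, had 7 to 19 counts per library and was tested only against R1 and R3, with a log2 fold change of -0.03 ± 0.57.

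Groups did not overlap for 4 of 30 members with all libraries, beside 16.2% of all genes. NUPR1, CEBPB and VLDLR were higher with progesterone, beside 7.95% of all genes, and ALDH18A1 was lower, beside 8.22%. Against R1 and R3 they did not overlap for 9 of 31, beside 26.8% of all genes. In the higher direction these were 7 of 31, beside 12.9% of all genes: the same 3 and TRIB3, PPP1R15A, MTHFD2 and ALDH1L2. In the lower direction they were ALDH18A1 and SHMT1, beside 13.9%.

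Both calls with all 8 libraries were lost when any 1 of 6 libraries was left out. Without DMSO R7, DMSO R9 or any single progesterone library, neither NUPR1 nor ALDH18A1 passed, with edgeR adjusted p between 0.0630 and 0.0863 for NUPR1 and between 0.0801 and 0.114 for ALDH18A1. Without any 1 of these 6 libraries, 42 to 82 genes passed in the whole table, in place of 359. The log2 fold changes stayed between 1.44 and 1.97 for NUPR1 and between -0.80 and -0.62 for ALDH18A1 over all 8 such fits. Without DMSO R1 the members called lower were 4, ALDH18A1, MTHFD1L, CTH and PYCR1, when 1782 genes passed in all. Without DMSO R3 the members called higher were 3, NUPR1, CEBPB and VLDLR, when 795 passed.

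**Figure D3:**
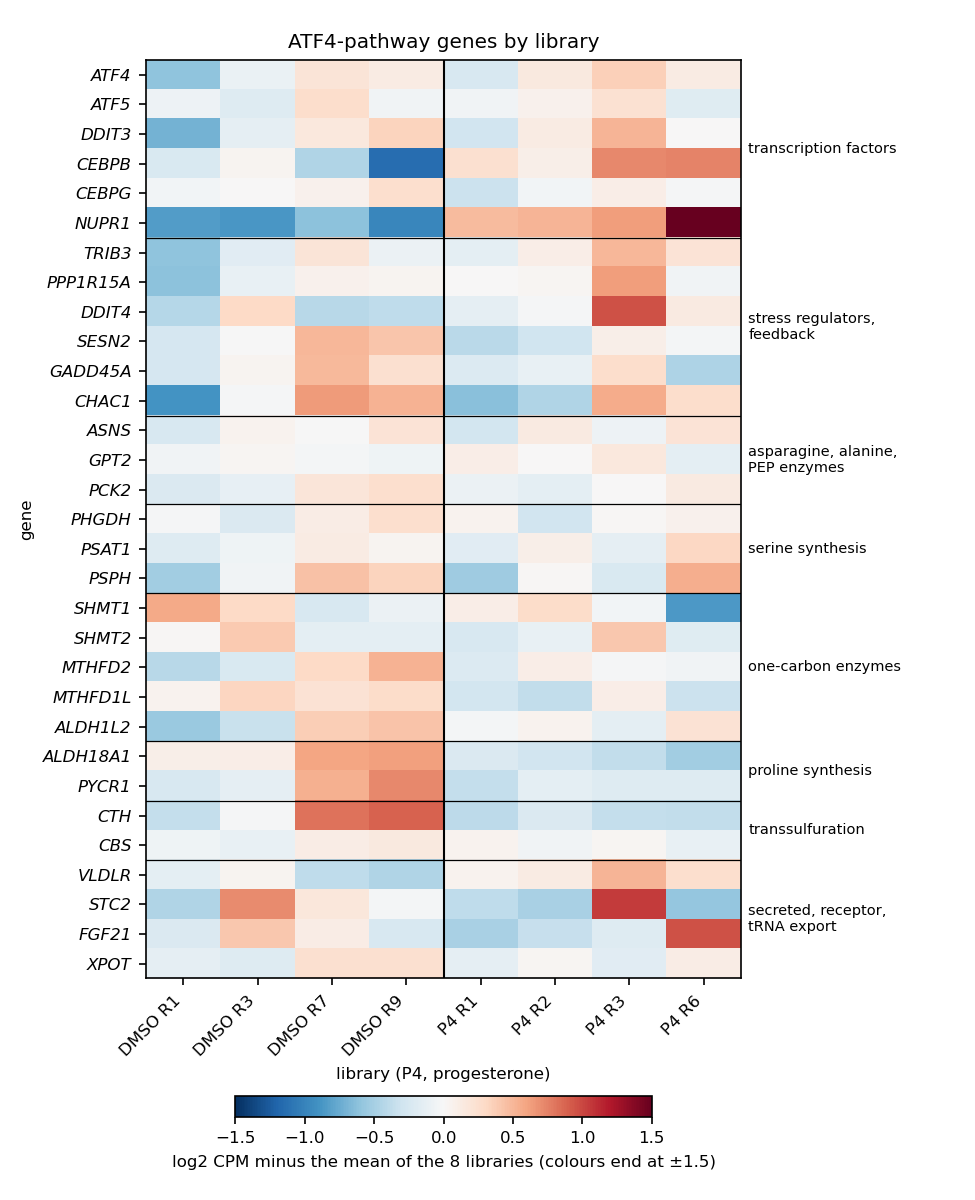
Log2 CPM of each gene minus its mean over the 8 libraries, red above and blue below, with genes ordered by role and a black line between DMSO and progesterone (P4). CTH, PYCR1 and ALDH18A1 are highest in DMSO R7 and R9, NUPR1 is low in all 4 DMSO libraries, and STC2 is high in DMSO R3 and P4 R3.

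In their median level the DMSO libraries spanned a wider range than the progesterone libraries. The median over the 30 tested members of log2 CPM, relative to the mean of the 8 libraries, was -0.24 in DMSO R1 and -0.04 in R3, but 0.17 in R7 and 0.22 in R9. In progesterone R1, R2, R3 and R6 it was -0.19, 0.01, 0.10 and -0.01, all inside the DMSO range. The same medians over all genes tested were between -0.01 and 0.01. DMSO R7 and R9 were both above the other 6 libraries for 10 of 30 members, beside 25.2% of all genes tested: ALDH18A1, PYCR1, CTH, CBS, MTHFD2, ALDH1L2, PHGDH, PCK2, SESN2 and XPOT. They were both below for 2, CEBPB and VLDLR, beside 24.0% of all genes. These shares were 33.3% and 6.67% of the members. For the proline enzymes the medians were 0.56 and 0.67 in R7 and R9, and for the transsulfuration enzymes 0.46 and 0.52. The summed stromal fibroblast markers were at 20569 and 19039 CPM in R7 and R9 and at 12083 to 13572 CPM in the other 6, and all 9 of these markers were detected in every library. Of these 9, 2 had a positive and 7 a negative log2 fold change with all libraries, and 0 passed in edgeR. For 2 of the 9 the groups did not overlap, lower with progesterone, beside 8.22% of all genes. The summed epithelial markers, of which 7 of 10 were measured, were at 2823 to 3076 CPM with DMSO and at 1741 to 2660 CPM with progesterone, without overlap. Taken singly, 3 of these 7 had a positive and 4 a negative log2 fold change with all libraries. None of them passed in edgeR, and the groups did not overlap for 1 of them, lower with progesterone. The part of these differences in the members' values was not tested.

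The pathway around these genes was read from lists of related genes. Of 15 genes for eIF2 kinases, eIF2 and its exchange factor eIF2B, EIF2S3, the gamma subunit of eIF2, rose 1.38-fold with all libraries, from 237 ± 17.6 to 328 ± 27.0 CPM (mean ± SD, n = 4 each, edgeR adjusted p = 0.0333). The other 14 did not pass in edgeR, and DESeq2 called 3 of them lower. At an unadjusted p under 0.05 edgeR listed 6 of 15 with all libraries, 1 higher and 5 lower. Over all genes tested the share was 26.8%, 12.3% higher and 14.5% lower. Against R1 and R3 edgeR listed 2 of 15, 1 in each direction, beside 15.9% of all genes. None passed in edgeR against R1 and R3, with a log2 fold change for EIF2S3 of 0.43 and an adjusted p of 0.0799, while DESeq2 called EIF2S3 (0.00572). The edgeR call of EIF2S3 was lost without DMSO R7, DMSO R9 or any single progesterone library (adjusted p 0.0665 to 0.114). Of 10 measured amino acid transporters linked to ATF4, 0 passed in edgeR, and DESeq2 called SLC3A2 (adjusted p = 0.0295). Without DMSO R1 edgeR called SLC1A5 lower (adjusted p = 0.0239). With all libraries 2 of the 10 had an unadjusted edgeR p under 0.05, beside 26.8% of all genes. SLC3A2, the heavy chain shared by several transporters, had a log2 fold change of 0.31 ± 0.10, and the glutamine transporter SLC1A5 of -0.50 ± 0.18, against -0.15 ± 0.13 for the latter without R7 and R9. None of 12 cytosolic aminoacyl-tRNA synthetases passed in edgeR. With all libraries 5 had an unadjusted edgeR p under 0.05, all lower, beside 14.5% of all genes in that direction. DESeq2 called EPRS1 lower (adjusted p = 0.0136), and without DMSO R1 edgeR also called EPRS1 (0.0317) and MARS1 (0.0275). All 12 had a negative log2 fold change with all libraries, with a median of -0.25, but 7 of 12 and -0.05 against R1 and R3. EPRS1 and MARS1 had log2 fold changes of -0.36 ± 0.10 and -0.38 ± 0.13 with all libraries.

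Of 17 genes of endoplasmic reticulum (ER) chaperones and other arms of the unfolded protein response, 2 fell with all libraries and 15 did not pass in edgeR, where DESeq2 called 6 lower. HYOU1, an ER chaperone of the HSP70 class, was at 302, 298, 467 and 473 CPM with DMSO and at 229, 209.8, 232 and 215 CPM with progesterone. All progesterone libraries were below all DMSO libraries, and HYOU1 fell by 0.80 ± 0.16 on the log2 scale with all libraries (edgeR adjusted p = 0.0360). It also passed against R1 and R3, where it fell by 0.43 ± 0.09 (0.0450). The calls of HYOU1 were lost with all libraries without DMSO R7, DMSO R9 or any single progesterone library (edgeR adjusted p 0.0848 to 0.123), and against R1 and R3 without any single library but progesterone R3 (0.0537 to 0.324). DNAJB11, a cochaperone of HSPA5, fell by 0.74 ± 0.15 (edgeR adjusted p = 0.0370) and was at -0.41 ± 0.09 against R1 and R3 (0.0646), where DESeq2 called it (0.00992). Its call with all libraries was lost without the same 6 libraries (edgeR adjusted p 0.0810 to 0.121). The median of the list was -0.25 with all libraries and -0.11 against R1 and R3. HSPA5 itself, the main ER chaperone, was named after its values were seen. It was at 1089, 1124, 1933 and 2266 CPM with DMSO and at 859, 785, 1008 and 791 CPM with progesterone. DMSO R7 and R9 were both above the other 6 libraries. All progesterone libraries were also below DMSO R1 and R3, so the groups did not overlap, as for 8.22% of all genes in that direction. With DMSO R7 and R9 included the log2 fold change of HSPA5 was -0.90 ± 0.23 (edgeR adjusted p = 0.0678).

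Among 11 other genes of proline, glutamate and aspartate metabolism, PRODH, the mitochondrial dehydrogenase that starts proline breakdown, rose 2.22-fold from 5.99 ± 0.912 to 13.3 ± 2.80 CPM (edgeR adjusted p = 0.0207). Its log2 fold change was 1.15 ± 0.19 with all libraries and 1.14 ± 0.23 against R1 and R3. There the edgeR adjusted p was 0.0503, while DESeq2 called PRODH (0.000125). The edgeR call of PRODH with all libraries was lost without DMSO R7, DMSO R9 or progesterone R1, R3 or R6 (adjusted p 0.0533 to 0.0729). Every progesterone library was above every DMSO library for PRODH, as for 7.95% of all genes tested. All were below for the proline synthase ALDH18A1, as for 8.22%, while the groups overlapped for PYCR1. At an unadjusted p under 0.05 edgeR listed 5 of the 11 genes with all libraries, 2 higher and 3 lower. Over all genes tested the share was 26.8%, 12.3% higher and 14.5% lower. After adjustment 10 of the 11 did not pass. Of 15 measured genes of the wider folate, glycine and methionine cycles, SFXN1, the mitochondrial serine carrier, fell 1.48-fold from 40.5 ± 3.37 to 27.3 ± 3.00 CPM (edgeR adjusted p = 0.0303) and 14 did not pass in edgeR. Against R1 and R3 the log2 fold change of SFXN1 was -0.48 ± 0.12 (edgeR adjusted p = 0.0809), while DESeq2 called it (0.0169). Its edgeR call with all libraries was lost without DMSO R7, DMSO R9 or any single progesterone library (adjusted p 0.0655 to 0.0914).

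Of 14 other bZIP and partner factors, CEBPD, a C/EBP factor known to respond to steroid hormones, rose 3.29-fold with all libraries and 2.62-fold against R1 and R3 (edgeR adjusted p = 0.0151 and 0.00855), and 13 did not pass. Its call was lost with all libraries without DMSO R7 or progesterone R6 (edgeR adjusted p = 0.0585 and 0.0515), and against R1 and R3 without DMSO R1 or R3 (0.0824 and 0.108). Of 8 genes of the mitochondrial stress relay, 0 passed in edgeR. With all libraries 2 had an unadjusted edgeR p under 0.05, GDF15 and HSPD1, beside 26.8% of all genes. DESeq2 called both (adjusted p = 0.0240 and 0.0391). EdgeR called GDF15 higher without DMSO R3 (adjusted p = 0.0394) and HSPD1 lower without DMSO R1 (0.0396). With all libraries the stress hormone GDF15 had a log2 fold change of 0.71 ± 0.23 and the matrix chaperonin HSPD1 of -0.44 ± 0.15. Against R1 and R3 the values were 0.41 ± 0.19 and -0.13 ± 0.09.

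**Figure D4:**
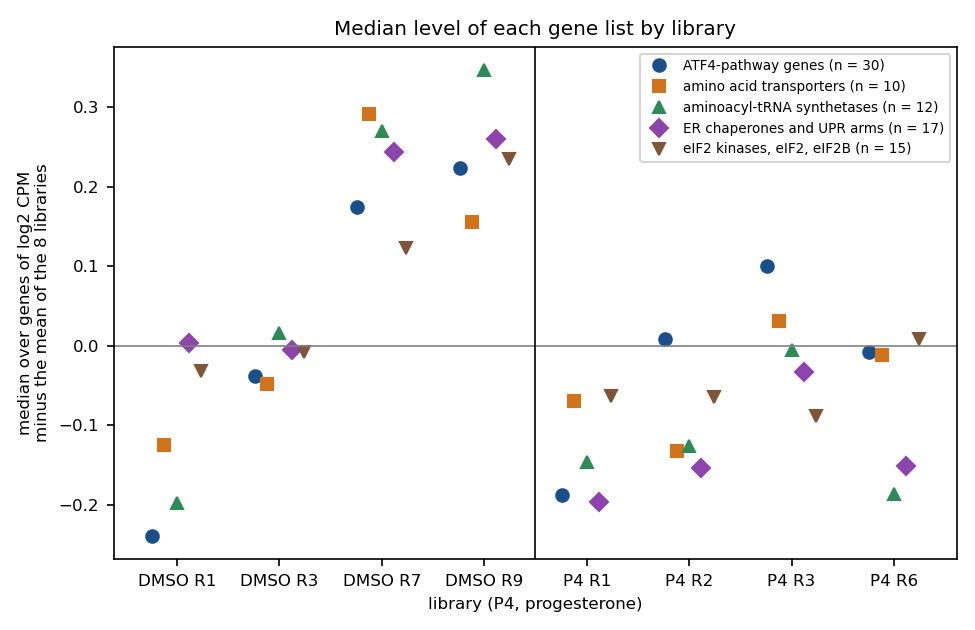
Median over genes of log2 CPM minus the mean of the 8 libraries, for the ATF4-pathway genes (30 tested) and 4 related lists, in each library (P4, progesterone). All 5 of these lists are highest in DMSO R7 and R9, unlike the 4 lists not drawn (wider folate and methionine cycles, other proline and glutamate genes, other bZIP factors, mitochondrial relay), and the 4 progesterone libraries lie between -0.20 and 0.10.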

How the data were processed

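The authors deposited 1 table of estimated counts per gene for 8 libraries; per the labels' protocols the kit selects poly(A) RNA and keeps strand. Salmon 1.4.0, bcl2fastq and build ARS-UCD1.2 are named in the submitters' processing notes, with no role or order. The name of the table says length normalized, by a method not given in the sources used here, so levels are not compared between genes. Column names give the group but not the sample. Chromosomes are those of the deposited table.

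Counts were rounded. Genes kept by edgeR's filterByExpr entered edgeR 4.0.16 with TMM scaling (quasi-likelihood F test, robust, two-sided; R 4.3.3), with Benjamini-Hochberg adjustment over all genes tested and a threshold of 0.05. The SE is the size of the log2 fold change over the square root of F. No pair of libraries of 1 group agreed within sampling noise (chi-square per degree of freedom 14.2 to 129). The test was checked on simulated counts. With all libraries it recovered 70% of 1.5-fold and 85% of 2-fold changes, and against R1 and R3 45.5% and 79.6%. False calls numbered 9 and 12. The spread of the simulated counts was taken from the libraries other than DMSO R7 and R9, so the check does not cover the split within DMSO. Alternatives changed the scaling (library size only, or size factors of DESeq2), the filter (none, or a mean CPM of 1 or more) or the tool (DESeq2 1.42.0, voom of limma 3.58.1), added the column number as a block, or left out each library.

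The members and lists were chosen with earlier results of these data known. Of 171 listed genes, 158 matched by symbol and 13 through the RefSeq gene table (ARS-UCD2.0). Every member is reported; from other lists, genes that passed in either comparison (at most 4) or else the 2 with the smallest p. No sequences were used here.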

Additional observations from a re-analysis of the deposited data

Results flagged for a closer look

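Of 62 sets of 4 libraries (31 genes, both groups), 8 held a library whose gap to its nearest neighbour took up more of the whole range than Dixon's 95% critical value allows, and chance gives about 1 in 20. Progesterone R3 was high for PPP1R15A (101.1 CPM, others 63.0 to 66.7), MTHFD1L (114.8 CPM, others 83.4 to 88.5) and STC2 (66.91 CPM, others 21.4 to 24.7). Progesterone R6 was high for NUPR1 (4.508 CPM, others 1.90 to 2.11) and FGF21 (0.7858 CPM, others 0.244 to 0.316). Progesterone R2 was low for PHGDH (111.8 CPM, others 138.8 to 143.5) and high for CTH (12.41 CPM, others 10.9 to 11.2). DMSO R3 was high for DDIT4 (134.3 CPM, others 81.5 to 84.0).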

How the results depend on the processing

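Of the members' log2 fold changes, 195 of 210 with all libraries kept their sign over the settings that kept the libraries, as did 208 of 216 against R1 and R3. Over the fits that leave out 1 library these were 210 of 240 and 167 of 185. The calls of NUPR1 and ALDH18A1 with all libraries held under 7 of 7 settings that kept the libraries and with 2 of 8 libraries left out in turn. Leaving out 1 library, members called higher numbered 0 to 3 and lower 0 to 4 with all libraries, and 0 and 0 to 1 against R1 and R3. DESeq2 called 3 members higher and 3 lower with all libraries, when 1830 of 13557 genes passed in all. Against R1 and R3 it called 3 higher and 1 lower, when 568 of 13764 passed. There edgeR without a filter called 2 and 1, when 326 of 19077 passed. The other settings that kept the libraries, the block aside, called 0 there.

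The numbers 1 and 3 occur in columns of both groups, with correlations of deviations from the group means of 0.226 and 0.21, but 2 pairs do not show that the numbers pair the samples. With the column number as a replicate block, whose fit has 1 residual degree of freedom and draws the contrast from these 2 pairs, 11 members were called higher and 2 lower with all libraries, when 2531 genes passed in all, and 10 and 2 against R1 and R3, when 2001 passed.

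With the column number as a block the sign turned with all libraries for GADD45A (0.14), CHAC1 (0.44), PCK2 (0.13), PHGDH (0.15), PSAT1 (-0.023), MTHFD2 (0.21), ALDH1L2 (0.35), CBS (0.13), STC2 (0.22) and XPOT (0.011), and against R1 and R3 for ASNS (-0.076), PSAT1 (-0.014), PSPH (-0.083) and STC2 (0.23). With scaling by library size only the sign turned with all libraries for ASNS (0.00333) and ALDH1L2 (0.00425), and against R1 and R3 for GADD45A (-0.037). Without a filter the sign turned with all libraries for ASNS (0.022) and ALDH1L2 (0.017), and against R1 and R3 for GADD45A (-0.000301). With limma voom the sign turned with all libraries for ALDH1L2 (0.041), and against R1 and R3 for GADD45A (-0.00532). With a mean of at least 1 CPM the sign turned against R1 and R3 for GADD45A (-0.00300). Over the fits that leave out 1 library, signs varied for these log2 fold changes: with all libraries ATF5 -0.049 to 0.13, DDIT3 -0.018 to 0.30, CHAC1 -0.39 to 0.042, ASNS -0.079 to 0.077, PCK2 -0.13 to 0.024, PHGDH -0.15 to 0.020, PSAT1 -0.051 to 0.11, PSPH -0.33 to 0.051, SHMT2 -0.22 to 0.083, MTHFD2 -0.27 to 0.041, ALDH1L2 -0.17 to 0.14, CBS -0.082 to 0.00196 and STC2 -0.64 to 0.16, and against R1 and R3 CEBPG -0.11 to 0.035, SESN2 -0.14 to 0.11, GADD45A -0.15 to 0.15, ASNS -0.047 to 0.24, GPT2 -0.00219 to 0.10, PHGDH -0.014 to 0.18, PYCR1 -0.086 to 0.027, CTH -0.32 to 0.023, STC2 -0.73 to 0.53, FGF21 -0.37 to 0.37 and SLC1A5 -0.34 to 0.044. The cause of these turns was not tested. With 1 DMSO library left, its spread is assumed to be that of the progesterone group.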
